A study of Rattus norvegicus with 11 samples.

Results

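The caveolins Cav1, Cav2 and Cav3 and the cavins Ptrf, Sdpr, Prkcdbp and Murc were followed in ventricular myocytes of adult rats. They were chosen by gene symbol, with earlier results of these data known. All 7 were found among 17257 genes, of which 13346 had a mean above 0. The cavins stand here under their older symbols, and Ptrf, Sdpr, Prkcdbp and Murc are now called Cavin1, Cavin2, Cavin3 and Cavin4. Total RNA came from 5 libraries of female and 6 libraries of male wild-type Sprague Dawley rats aged 3 to 4 months. The myocytes, the contractile cells of the heart, had been released with a Langendorff apparatus, which perfuses the excised heart through its own vessels, and were kept on dishes for 45 minutes with no treatment before freezing. The labels call the libraries biological replicates and do not say whether animals were pooled. The design compares gene expression between the sexes.

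Caveolae are small flask-shaped pits of the plasma membrane. Caveolins sit in the inner leaflet and bind cholesterol, and cavins form a coat on the cytoplasmic side that shapes and steadies the pit. Cav3 and Murc are the muscle forms, whereas Cav1, Cav2, Sdpr and Prkcdbp are abundant in endothelial cells, fibroblasts and fat cells, and Ptrf is needed for caveolae in both settings. In heart muscle caveolae hold signalling receptors, ion channels and a reserve of membrane that can flatten when the cell is stretched, and they take part in forming transverse tubules.

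Of the 7 genes, 3 were lower in females and none was higher at an adjusted p under 0.05 per the authors' deposited table, with the adjustment being Benjamini-Hochberg over 13346 genes. The 3 were Cav2, Sdpr and Murc. Among all genes tested, 14.5% were called, with 6.71% higher and 7.76% lower in females, all as shares of the 13346 genes of the authors' deposited table. These shares were not matched for mean count. The lowest overall mean of a member was 822, whereas only 10519 of the 13346 genes had a mean of 10 or more. At an unadjusted p under 0.05 per the authors' deposited table, 4 members were lower and 1 was higher, Cav1 and Ptrf being the additional genes. At that threshold 1949 of the 13346 genes were lower and 1699 higher in females. With a Holm adjustment, a stricter correction over all genes, 0 of the 7 passed.

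Values are the authors' mean normalized counts, which are reads per gene divided by a size factor of the library, averaged over the libraries of a sex. Reads in single libraries could not be read back at means of this height, so the members have no SD and whether the libraries of the sexes overlapped is not shown. As a measure of error, the spread between libraries was found that makes DESeq's negative binomial test return the authors' p for the observed means. This implied coefficient of variation (CV) gave each log2 fold change, female over male, an approximate SE and 95% interval. Counting error was small beside it. About 2634 reads in females and 6442 in males lay behind Cav2, the member with the fewest reads, and its counting error was 1.95% in females and 1.25% in males, whereas Sdpr rested on about 33566 reads in females and 51646 in males.

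**Figure D1:**
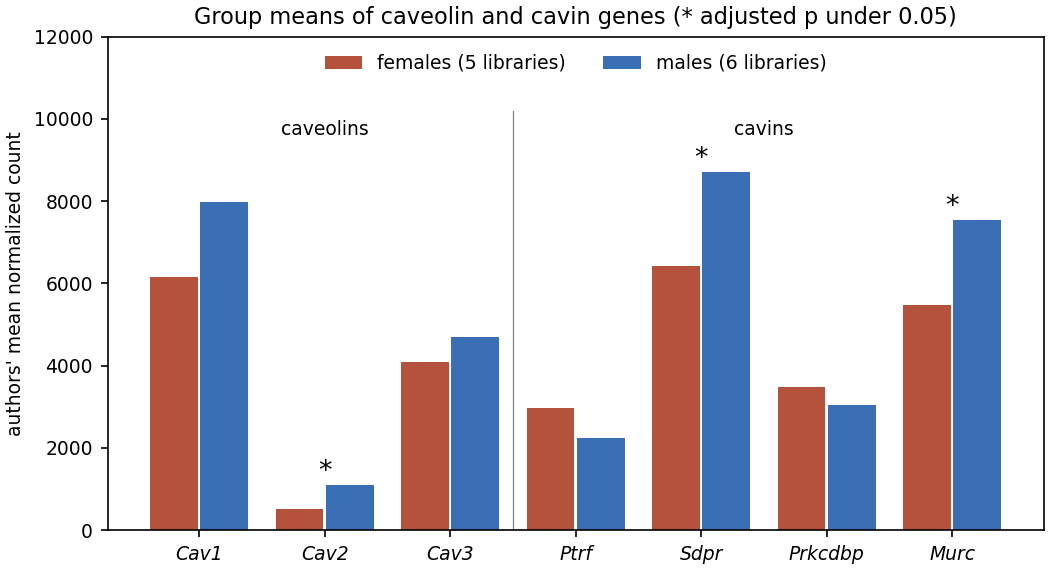
Mean normalized counts of the 3 caveolin and 4 cavin genes in females (left bar of each pair) and males (right bar), from the authors' deposited table, with asterisks at an adjusted p under 0.05. Cav2 stood at 504 in females against 1087 in males, and only Ptrf and Prkcdbp had the higher bar in females. The bars carry no error because the table gives no value per library.

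Cav2 showed the largest difference of the family. It encodes a caveolin that is carried to the cell surface by the product of Cav1 and does not form pits without it. Its mean per the authors' deposited table was 504 normalized counts in females and 1087 in males, a fold of 0.464. The log2 fold change was -1.11 with an approximate SE of 0.27 and a 95% interval from -1.63 to -0.58, and the adjusted p was 0.00236 per the authors' deposited table. Of 9116 genes with means of 50 or more per the authors' deposited table, 64 had a log2 fold change at least as low, which is 0.702%. The implied CV of Cav2 was 30.3%, the highest of the 7, and 95.7% of 2639 genes with a mean within 2-fold of its own had a lower one. Here and below, genes of similar mean are only those with an unadjusted p under 0.5, for which an implied CV was found.

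Cav1, the principal caveolin of non-muscle cells, had means of 6158 normalized counts in females and 7971 in males per the authors' deposited table, a fold of 0.773. Its log2 fold change of -0.37 had an approximate SE of 0.16, and its adjusted p of 0.098 missed the threshold per the authors' deposited table. The unadjusted 95% interval, from -0.68 to -0.061, lay below 0. Cav1 and Cav2 are neighbours on chromosome 4 in the gene order of the RefSeq assembly GRCr8, and the intervals of the pair overlapped between -0.68 and -0.58. A test of the difference between them would need values per library and was not made.

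Cav3, the muscle caveolin that lines the sarcolemma and the young transverse tubules, had means of 4081 normalized counts in females and 4707 in males per the authors' deposited table. The fold was 0.867 and the adjusted p 0.366 per the authors' deposited table. The 95% interval of its log2 fold change ran from -0.48 to 0.065, so that folds between 0.718 and 1.05 lay within the error. Its implied CV of 15.7% stood close to the median of 15.9% over 1167 genes of similar mean. The muscle caveolin thus had one of the narrower intervals of the family and showed no difference beyond its error.

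Of the 4 cavins, Murc and Sdpr were lower in females and Ptrf and Prkcdbp were not called. Murc, the cavin of striated muscle, which is known to bind the other cavins and Cav3, had means of 5484 normalized counts in females and 7536 in males per the authors' deposited table, a fold of 0.728. Its log2 fold change was -0.46 with an approximate SE of 0.13, a 95% interval from -0.72 to -0.20 and an adjusted p of 0.00987 per the authors' deposited table. Sdpr, whose product helps to curve the membrane into elongated caveolae, had means of 6419 in females and 8713 in males per the authors' deposited table, a fold of 0.737. The log2 fold change of Sdpr was -0.44 with an approximate SE of 0.13, a 95% interval from -0.70 to -0.18 and an adjusted p of 0.0124 per the authors' deposited table. Murc and Sdpr thus had nearly the same fold, and a 2-fold difference lay outside both intervals. Under another scaling, a call here means an approximate p from the implied SE of at most 0.00722, the largest p among called genes. The adjustment over all genes was not redone. By that rule, both calls were lost when the sexes were scaled to equal sums over all genes. The log2 fold changes were then -0.31 for Murc and -0.29 for Sdpr. Scaled to equal sums over genes with a symbol, both kept their calls, at -0.52 for Murc and -0.50 for Sdpr.

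Ptrf and Prkcdbp had their higher mean in females. Ptrf encodes the cavin without which the coat does not form, and was first known as a factor that releases RNA polymerase I from its template. Its means were 2980 normalized counts in females and 2234 in males per the authors' deposited table, a fold of 1.33. The log2 fold change of 0.42 had an approximate SE of 0.18 and an unadjusted interval from 0.053 to 0.78, and with an adjusted p of 0.112 per the authors' deposited table it was not called. Prkcdbp, which encodes a cavin that binds protein kinase C delta, had means of 3493 in females and 3045 in males per the authors' deposited table. Its fold was 1.15, its adjusted p 0.406 per the authors' deposited table, and its interval ran from -0.082 to 0.48. The intervals of Ptrf and Prkcdbp did not reach those of Sdpr and Murc, which ended at -0.18 and -0.20, but the difference between members was not tested.

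**Figure D2:**
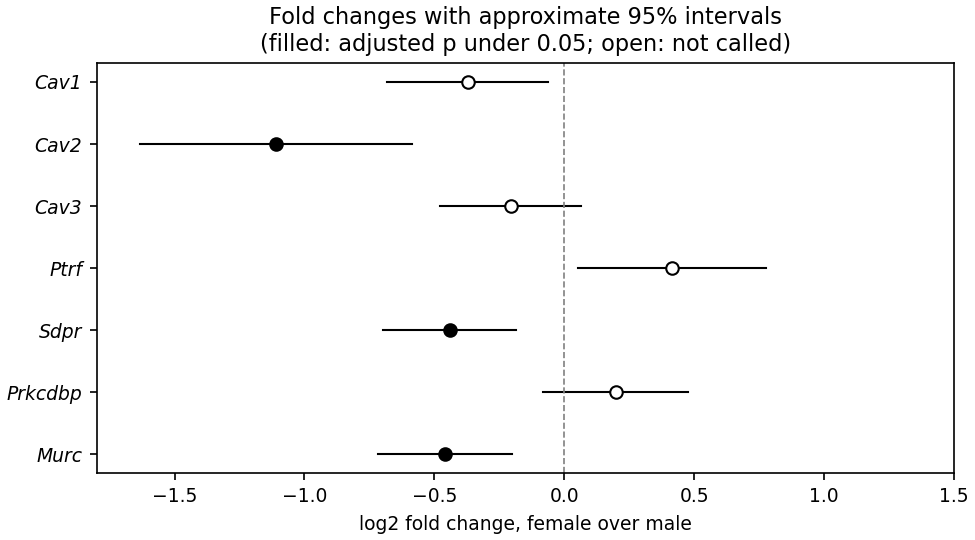
Log2 fold change (female over male) of each member with its approximate 95% interval, computed from the spread that the authors' p implies; filled points had an adjusted p under 0.05. Cav2, Sdpr and Murc lay below 0, Cav3 and Prkcdbp crossed 0, and the unadjusted intervals of Cav1 (to -0.061) and Ptrf (from 0.053) stopped just short of it.

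The implied CV is computed from the authors' p at the observed means, so for like folds it restates the p and is no separate measurement. It was 21.0% for Ptrf (log2 fold change 0.42) and 15.0% for Murc (-0.46). Among 1725 genes with a mean like that of Ptrf, 84.1% had a lower implied CV, against 19.1% of 787 genes around Murc. Cav1 also stood in the upper part with 18.0%, above 77.4% of 726 genes of similar mean. Sdpr had an implied CV of 14.8%, with 17.1% of 678 genes of similar mean below it. Prkcdbp had 16.2%, with 51.2% of 1485 such genes below it.

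**Figure D3:**
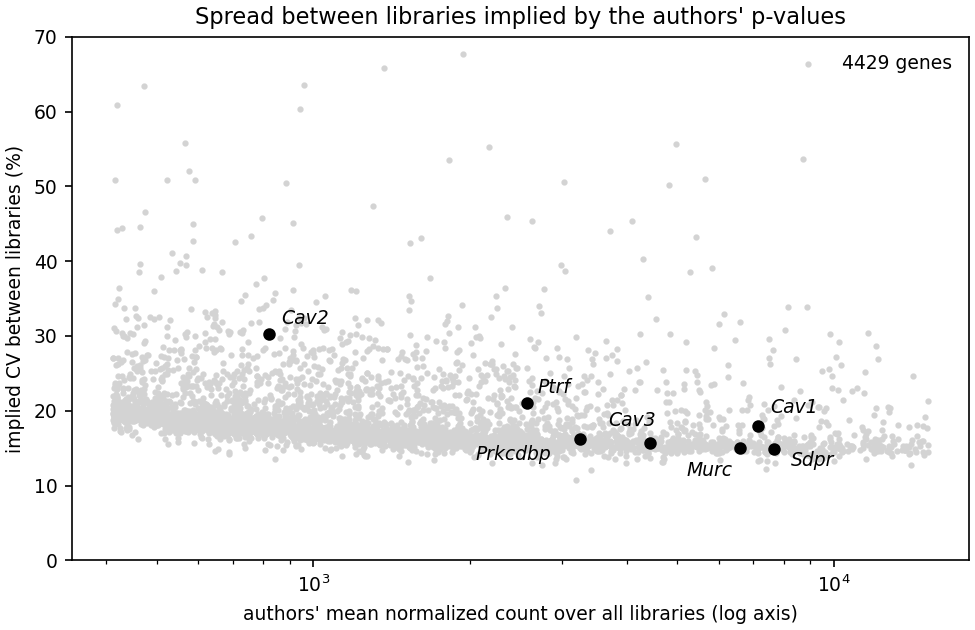
Implied CV between libraries (%) against the authors' mean normalized count over all libraries (log axis), for 4429 genes in the range of the members with an unadjusted p under 0.5 (grey, 4 of them above the axis) and for the 7 members (black). Cav2 at 30.3%, Ptrf at 21.0% and Cav1 at 18.0% lay above the dense lower band, and the other members lay within it. Whether values in that band are each gene's own spread or a fitted line used in the test is not given.

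Sequence around the start of the called genes is given because these are the members whose RNA differed between the sexes. The RefSeq promoter table of the assembly GRCr8 held 6 of the 7 genes, all but Prkcdbp, each as 250 bases before to 50 bases after a start. Capitals mark matches, on either strand, to the short motifs spelled out after the sequences. Cav2 lies at chr4:46582431-46582730 on the plus strand, Sdpr (Cavin2) at chr9:57805975-57806274 on the minus strand and Murc (Cavin4) at chr5:67792182-67792481 on the plus strand.
Cav2: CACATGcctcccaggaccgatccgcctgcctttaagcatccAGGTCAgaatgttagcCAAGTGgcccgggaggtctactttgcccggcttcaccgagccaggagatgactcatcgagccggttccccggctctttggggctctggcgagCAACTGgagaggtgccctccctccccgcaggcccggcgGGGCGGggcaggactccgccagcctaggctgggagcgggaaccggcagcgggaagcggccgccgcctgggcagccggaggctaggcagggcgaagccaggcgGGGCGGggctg
Sdpr: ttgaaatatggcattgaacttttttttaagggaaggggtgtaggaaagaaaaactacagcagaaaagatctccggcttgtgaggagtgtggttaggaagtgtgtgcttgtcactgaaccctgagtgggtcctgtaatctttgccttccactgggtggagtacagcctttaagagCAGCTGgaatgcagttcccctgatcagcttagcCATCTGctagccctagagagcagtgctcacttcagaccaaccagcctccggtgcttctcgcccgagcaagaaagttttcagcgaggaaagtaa
Murc: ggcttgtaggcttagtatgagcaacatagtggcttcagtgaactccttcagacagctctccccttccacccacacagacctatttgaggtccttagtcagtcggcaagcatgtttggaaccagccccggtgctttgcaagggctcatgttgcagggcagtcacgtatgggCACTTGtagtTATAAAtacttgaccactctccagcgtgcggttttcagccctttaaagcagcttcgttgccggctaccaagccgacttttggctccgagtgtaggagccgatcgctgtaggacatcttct

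Of the 9 motifs searched, the E-box is written CANNTG and binds helix-loop-helix factors. The TATA box was read as TATAAA and helps to place the start of transcription. The CCAAT box has the letters of its name, and the GC box, a site for Sp1, was read as GGGCGG. The half-site of the estrogen receptor was read as AGGTCA, and the one shared by the androgen and glucocorticoid receptors as AGAACA. The site for GATA factors was read as AGATAA, and the CArG box and the MEF2 site, both known from muscle genes, complete the search. The letters of the TATA box and of the MEF2 site can overlap, but no matches did so in the printed windows. The window of Cav2 was rich in G and C, with 70.3% against a median of 51.7% over 33469 promoters of the table, and held 3 E-boxes, 2 GC boxes and 1 estrogen receptor half-site. An E-box occurs in 72.1%, a GC box in 33.1% and that half-site in 16.2% of all promoters there. The window of Sdpr held 2 E-boxes and that of Murc 1 E-box and 1 TATA box, which 14.2% of all promoters hold. In Cav3 there were 1 E-box, 1 CCAAT box and 1 MEF2 site, the last found in 3.29% of all promoters. The Ptrf window held 1 CCAAT box and 1 GC box and no E-box. Cav1 had 2 windows, of which the first held 1 E-box, 1 TATA box, 2 GC boxes and 1 androgen and glucocorticoid receptor half-site, found in 20.7% of all promoters, and the second held 1 E-box. Matches are descriptions of the letters and were not tied to the RNA levels.

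Neighbouring genes, looked up after the data were examined, had their own values. On the far side of Cav2 the nearest listed protein-coding gene was Tes, with means of 71.9 normalized counts in females and 87.0 in males and an adjusted p of 0.647 per the authors' deposited table. Beyond Cav1 came Met, a growth factor receptor, with 28.7 in females and 14.2 in males and an adjusted p of 0.425 per the authors' deposited table. Next to Ptrf, Atp6v0a1, which encodes a subunit of the vacuolar proton pump, was higher in females, with 4218 against 3102 in males and an adjusted p of 0.0158 per the authors' deposited table. Stat3, on the other side of Ptrf, stood at 0.20 on the log2 scale with an adjusted p of 0.399 per the authors' deposited table. Nabp1, near Sdpr, had 491 in females and 782 in males with an adjusted p of 0.0539 per the authors' deposited table. On the other side of Sdpr, Tmeff2 had 2.55 in females and 10.4 in males (adjusted p 0.246 there). Lmcd1, near Cav3, stood at 0.029 and Tmeff1, near Murc, at -0.55 on the log2 scale, with adjusted p-values of 0.904 and 0.588 there. Oxtr, Cckbr and Lppr1 were listed at 0, and Smpd1 is given below. Whether neighbours change together was not tested.

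The proteins that work with caveolins and cavins were taken from 6 lists with 98 genes, all of them measured. Of these, 15 were higher and 7 lower in females per the authors' deposited table, which is 15.3% and 7.14% of the 98, beside 6.71% and 7.76% of all genes. These shares were not matched for mean count. Only 10519 of the 13346 genes had a mean of 10 or more, against most of the 98, and genes with low means are harder to call. The lists were read as descriptions, and no test was made of any list.

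Genes of the caveola neck and of membrane bending and scission had no call. Of 13 measured genes, 11 had a log2 fold change above 0, beside 6547 of 13346 genes. None passed the threshold, and 2 were higher at an unadjusted p under 0.05, beside 1699 of 13346, per the authors' deposited table. These were Dnm2, the dynamin that pinches vesicles from the membrane, and Pacsin2, a membrane-curving protein. Dnm2 had means of 3535 normalized counts in females and 2712 in males with an adjusted p of 0.0518 there, and Pacsin2 had 14479 in females and 11827 in males with 0.136 per the authors' deposited table. The median log2 fold change over the 12 genes with means of 10 or more was 0.22, beside -0.0037 over 10519 genes with such a mean. Ehd2, the ATPase that rings the neck of the pit, had 3429 in females and 2727 in males and an adjusted p of 0.611 per the authors' deposited table.

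Among 14 genes of transverse tubules and membrane repair, 1 was higher and 1 lower in females per the authors' deposited table. Jph2, which ties transverse tubules to the sarcoplasmic reticulum, had means of 19473 normalized counts in females and 14671 in males, a fold of 1.33 with an adjusted p of 0.0264 per the authors' deposited table. Anxa1, a calcium-dependent membrane-binding protein, had 710 in females and 1034 in males, a fold of 0.687 with an adjusted p of 0.0279 per the authors' deposited table. The median of the 13 genes with means of 10 or more was 0.033 on the log2 scale.

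Signalling proteins reported in myocyte caveolae divided into both directions, with 6 of 26 higher and 3 lower in females per the authors' deposited table. The higher ones were Adrb1 (log2 fold change 0.75), Adcy5 (0.43), Adcy6 (0.52), Nos3 (0.56), Insr (0.42) and Igf1r (0.68) per the authors' deposited table. They encode the cardiac beta-adrenergic receptor, the main cardiac adenylyl cyclases, endothelial nitric oxide synthase, whose activity caveolins restrain, and the insulin and insulin-like growth factor receptors. The lower ones were Gnai3 (-1.11), an inhibitory G protein, the kinase Prkca (-0.54) and Prkar2a (-0.49), a regulatory subunit of protein kinase A, per the authors' deposited table. Esr1, an estrogen receptor that can act at caveolae, had 121 normalized counts in females and 122 in males with an adjusted p of 0.987 per the authors' deposited table. Esr1 and Ehd2 were picked out after their values were seen. The median of the 25 genes with means of 10 or more was -0.0096.

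Of 19 ion channels and transporters reported in myocyte caveolae, 3 were higher in females and none was lower per the authors' deposited table. At an unadjusted p under 0.05 the counts were 6 and 0, beside 1699 and 1949 of 13346 genes. The glucose transporter Slc2a4 was among the higher ones, with means of 12430 normalized counts in females and 9468 in males and an adjusted p of 0.0302 per the authors' deposited table. The median of the 17 genes with means of 10 or more was 0.14.

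Among 13 genes of cytoskeletal links and their signalling, 3 were higher and 3 lower in females per the authors' deposited table. Rock1 and Rock2, kinases that drive actomyosin contraction, had log2 fold changes of -0.71 and -0.81 with adjusted p-values of 0.0255 and 0.0307 per the authors' deposited table. The delta-sarcoglycan gene Sgcd was lower (-0.64), and Sgca (0.42), filamin C Flnc (0.42) and talin Tln1 (0.60) were higher by log2 fold change per the authors' deposited table. The median of all 13 was -0.014 on the log2 scale. Of 13 lipid partners of caveolae, 4 were higher and 0 lower in females at an unadjusted p under 0.05. Over all 13346 genes the counts were 1699 and 1949. At an adjusted p under 0.05, 2 of the lipid partners were higher and none lower per the authors' deposited table. These 2 were Smpd1, an acid sphingomyelinase that is also the neighbour of Prkcdbp, with a log2 fold change of 0.40, and Srebf2, a regulator of cholesterol synthesis, with 0.50 per the authors' deposited table.

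**Figure D4:**
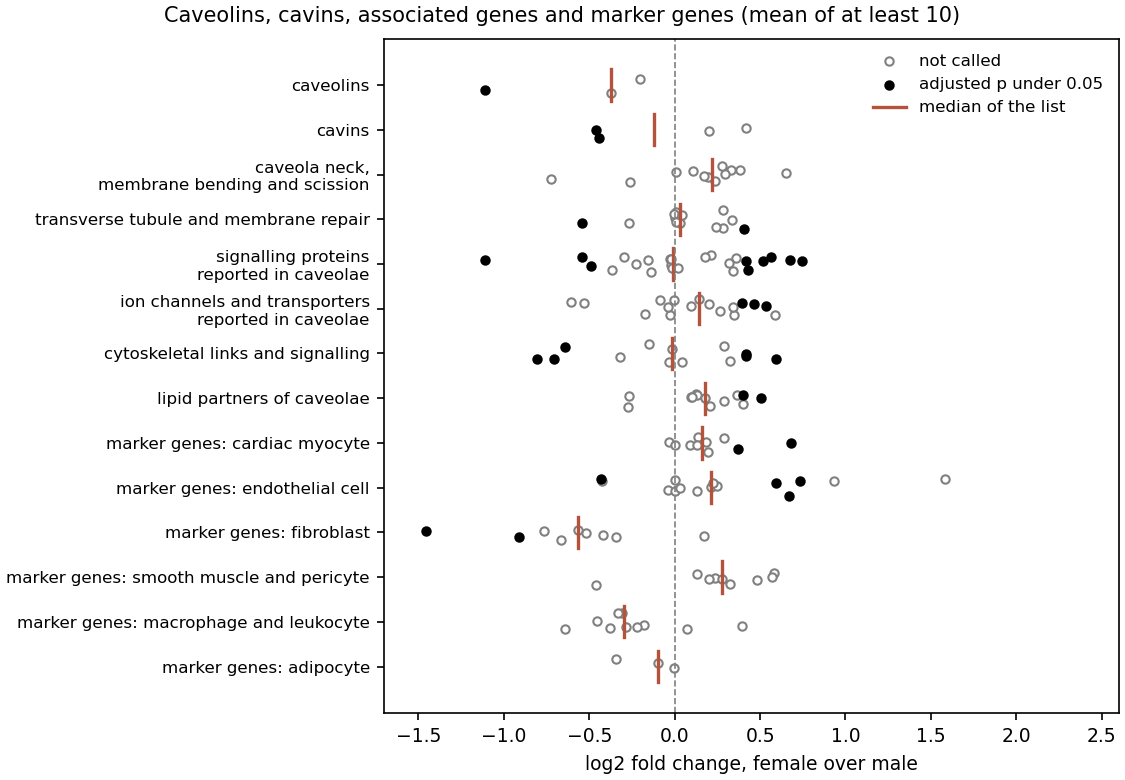
Log2 fold changes (female over male) of single genes with a mean of at least 10 in 2 member families, 6 lists of associated genes and 6 lists of marker genes; filled points had an adjusted p under 0.05 and vertical bars are list medians. The medians of the caveolins (-0.37) and cavins (-0.12) lay below 0. So did those of the fibroblast (-0.57), macrophage and leukocyte (-0.30) and fat cell (-0.096) markers. The medians of the endothelial (0.21), smooth muscle and pericyte (0.28) and myocyte (0.16) markers lay above it. The fat cell median rested on only 3 genes, Lpl, Fabp4 and Cfd, and was the value of Lpl. Adipoq, Plin1, Lep and Cidec had means under 10 and are not drawn.

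Markers of the cell types that could be in the preparation were read beside the members. Cav1, Cav2, Sdpr and Prkcdbp are expressed by several of these cell types, and Ptrf is needed for caveolae in muscle and other cells alike. In bulk RNA, fewer cells of a type and less RNA per cell cannot be told apart. Of 10 myocyte markers, all measured, 2 were higher and none lower in females per the authors' deposited table, with Myh6 at 1330870 normalized counts in females and 831771 in males and Ryr2 called as well (log2 fold change 0.37). Actc1 and Tnnt2, next by mean count, had adjusted p-values of 0.588 and 0.95 per the authors' deposited table. The summed means of the 10 markers were 4316900 in females and 3611230 in males, a fold of 1.20. Without Myh6 the sums were 2986030 in females and 2779460 in males, a fold of 1.07. Cav3 and Murc had folds of 0.867 and 0.728.

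Endothelial markers were present in both sexes, with 15 of 16 listed genes measured and a sum of 28277 normalized counts in females and 25961 in males, a fold of 1.09. Per the authors' deposited table, 3 of the 15 were higher and 1 was lower in females. Vwf, Egfl7 and Eng were higher, with log2 fold changes of 0.67, 0.59 and 0.73, and Emcn was lower with -0.43 per the authors' deposited table. The abundant Pecam1 and Cdh5 had means of 4902 and 3961 in females and 4889 and 4066 in males, with adjusted p-values of 1 and 0.959 per the authors' deposited table. At an unadjusted p under 0.05, 4 were higher and 2 lower, with Plvap and Erg added, per the authors' deposited table. Plvap stood at 0.93 on the log2 scale, with an unadjusted p of 0.0236 there. Erg, an endothelial transcription factor, stood at -0.43 with an unadjusted p of 0.0136 there. Both were picked out after their values were seen. The list held markers higher and lower in females, with a median of 0.21. Among the members abundant in endothelial cells, Cav2, Sdpr and Cav1 stood at -1.11, -0.44 and -0.37, and Prkcdbp at 0.20. Ptrf, needed for caveolae in muscle and other cells alike, stood at 0.42. Whether endothelial content bears on these members was not tested.

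Fibroblast markers had a lower sum in females, to which Col3a1 contributed most. Of 10 listed, Col1a2 was listed at 0 and 9 were measured, and their sum was 9841 normalized counts in females and 19353 in males, a fold of 0.509. Without Col3a1 the sums were 5927 in females and 8631 in males, a fold of 0.687. Of the 9, 7 were not called, and Tcf21, at 0.17 on the log2 scale, was the 1 above 0. Col3a1 and Col1a1 were lower in females, with log2 fold changes of -1.45 and -0.91, and none was higher, also at an unadjusted p under 0.05, per the authors' deposited table. Dcn, with 3902 in females and 5594 in males, and Dpt, with 702 in females and 1040 in males, had adjusted p-values of 0.524 and 0.474 per the authors' deposited table. Markers of smooth muscle and pericytes summed to 14980 in females and 13914 in males, and none of 10 was called, with 2 higher and 1 lower at an unadjusted p under 0.05 per the authors' deposited table. Those with the highest means were Abcc9, Rgs5 and Cspg4, with log2 fold changes of 0.13, -0.46 and 0.57 per the authors' deposited table. Abcc9 contributed most to the sum, and without it the smooth muscle and pericyte sums were 6184 in females and 5881 in males. Macrophage and leukocyte markers summed to 952 in females and 1170 in males, with none of 10 called and none at an unadjusted p under 0.05 per the authors' deposited table, Lyz2, Csf1r and C1qb having the highest means. Of 8 fat cell markers Retn was listed at 0, none of 7 was called and 1 was lower at an unadjusted p under 0.05, which was Fabp4, per the authors' deposited table. Adipoq and Plin1 were near 0, with 3.64 and 0.411 in females and 0.603 and 0 in males, whereas Lpl and Cfd had adjusted p-values of 0.695 and 1 per the authors' deposited table. The part of these cell types in the differences of Cav2, Sdpr and Murc was not tested.

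Scaling bore on the smaller differences. When the sexes were scaled to equal sums over all genes, which moved the median of the 9116 genes to 0.15 on that scale, the approximate unadjusted p was 0.0255 for Sdpr and 0.0189 for Murc, above 0.00722, the largest p among called genes, while Cav2 kept -0.96 and its call. Scaled to the summed myocyte markers, which moved that median to -0.26, Cav2, Sdpr and Murc stood at -1.37, -0.70 and -0.72 and Prkcdbp turned to -0.059. Without Myh6 in that sum, a setting added after the data were seen, Prkcdbp stood at 0.095 and Cav2, Sdpr and Murc at -1.21, -0.54 and -0.56.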

How the data were processed

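Stranded paired-end libraries were made from 650 ng of ribosome-depleted total RNA (integrity number 9 or higher), per the labels' protocols. Trimmomatic 0.32, TopHat2 2.0.12, HTSeq 0.6.1, FastQC, DESeq and the build rn6 are named, without roles, per the submitters' processing notes; the annotation and the use of strand in counting are not given in the sources used here. Per the file headers, the deposited table holds a mean normalized signal (gene counts over size factors) for all libraries and for groups A and B. The authors also gave the fold as a ratio of B to A, its log2 value, a p-value and an adjusted p-value. The overall mean weighted A by 6 and B by 5 in 13346 of 13346 genes (relative tolerance 1e-09), so A was read as males and B as females.

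Calls are the authors' DESeq adjusted p under 0.05, except those under another scaling. Size factors were read from the smallest distinct means. The implied spread assumes that the authors ran DESeq's exact negative binomial test with doubled tail, and takes summed reads as mean times summed size factors; it was found with scipy 1.17.1 in Python 3.11.15, was tested on simulated data, and covers genes with p under 0.5. Where the test had raised a low spread to a fitted trend, the implied CV overstates the gene's own; the fitting options are not given in the sources used here. Intervals are unadjusted. Levels are not compared between genes, since no transcript lengths were used. The RefSeq table gave Prkcdbp as an older name of Cavin3 and listed the current symbols of all members. The members and the 14 gene lists were chosen with earlier results of these data known. All members were named, with every called gene of each list, the most abundant 3 of each marker list and, where a list had no call, the 2 of smallest p among genes averaging 10 or more; a few of these are not reported here. No gene was named for a similar pattern, since 2 means give 1 ratio. The planned tests per library were not run, since no member had reads recovered.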

Additional observations from a re-analysis of the deposited data

How the results depend on the processing

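Of 59 values recomputed under alternatives, 50 kept their direction and side of the threshold or, for counts, stayed within 1.5 times. Pseudocounts of 1 or 10, centring on the median and filters at a mean of 10 or 50 changed none. These settings could hardly have done so. The lowest group mean of a member was 504, centring removed a log2 shift of only -0.0028, and every member passed both filters. The 50 include these settings, so their number overstates how firm the results are. Scaled to equal sums over all genes, Sdpr (-0.29) and Murc (-0.31) lost their calls and Ptrf (0.56) gained one. Scaled to equal sums over genes with a symbol, Cav1 (-0.43) gained a call. Scaled to the myocyte markers, Cav1 (-0.63) and Cav3 (-0.46) gained calls and Prkcdbp reversed (-0.059). Without Myh6 in the marker sum, a setting chosen after seeing the data, Cav1 (-0.48) gained a call, Cav3 (-0.31) was not called and Prkcdbp (0.095) did not reverse. Calls under another scaling compare an approximate p from the implied SE with 0.00722, the largest p among called genes. No adjusted p was recomputed, so they are not calls at an adjusted p under 0.05. The cause of the lost and gained calls and of the reversal was not tested, beyond the shift that each scaling adds to every gene. With the Holm adjustment the number of members called lower was 0, against 3. At an adjusted p under 0.01 and 0.1 it was 2 and 4. No paired analysis was possible because the table gives group means without replicate numbers. For the same reason no library could be left out. Depth does not limit the members, whose counting error was at most 1.95%; the spread between libraries does, and it was inferred, not measured.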
